A study of Homo sapiens with 18 samples.

Results

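The genes NEFL, NEFM, NEFH, INA, STMN2, STMN3 and TUBB3, which encode neurofilament subunits and other proteins of the neuronal cytoskeleton, were examined for occupancy by the histone methyltransferase EHMT1 and for the histone mark H3K9me2 in LNCaP cells, a human prostate cancer line that responds to androgens. They are 7 of the 20163 protein-coding genes of the annotation and were selected on peak calls in these same lists together with their known function, so that the calls at them are given as a description. A peak was assigned to a gene when it overlapped the gene body or lay within 10 kb of it, and 2 of the 22458 peaks in the 9 lists met this rule. ChIP-seq, which sequences DNA fragments precipitated with an antibody, had been done on 18 samples in 9 groups of 2 replicates. V5 and H3K9me2 chromatin came from 4 LNCaP lines carrying a lentiviral, doxycycline-inducible EHMT1 construct with a V5 tag, either WT or with arginine in place of the first (K450R), the second (K451R) or both (K450RK451R) of a pair of adjacent lysines. These stable, drug-selected lines had received 0.5 µg/ml doxycycline for 2 days and still carried their own EHMT1, which the H3K9me2 values do not separate from the tagged protein. EHMT1 itself was precipitated from parental LNCaP cells without a construct. Each group had 1 peak list, and it is not known which of the replicates went into it, so no value below has a replicate error.

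Neurofilaments are the intermediate filaments of axons, built from a light (NEFL), a medium (NEFM) and a heavy (NEFH) chain together with alpha-internexin (INA). STMN2 and STMN3 are neuronal stathmins, which bind tubulin and regulate the turnover of microtubules, and TUBB3 is the beta-tubulin isotype widely used as a marker of neurons. In cells that are not neurons, many neuronal genes are kept silent by REST, a zinc finger repressor that binds a sequence called RE1 and recruits chromatin enzymes, among them EHMT1 and its partner EHMT2, which place H3K9me2.

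RE1 was searched as its left and right arms, TTCAGCACC and GGACAGCGC with a gap of 2 bases, on both strands, and a match of at least 15 of the 18 arm positions is called RE1-type. The arms do not overlap each other. Matches lay in the windows of 6 of the 7 genes, all but NEFL, compared with 10.5% of all protein-coding genes (2117 of 20163). Neuronal genes of this kind are long known as REST targets, so the higher share is given as a description. Examples are shown for NEFH, INA, STMN3 and TUBB3 to set the matches of INA, which held EHMT1 peaks, beside matches without a peak. Each is read 5′ to 3′ on the strand of the match, in hg19, with capitals marking positions equal to the arms.
NEFH, chr22:29874665-29874684, minus strand: TTCAGCACCggGGACAGgGC
INA intron 1, chr10:105038766-105038785, minus strand: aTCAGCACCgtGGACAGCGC
INA upstream, chr10:105025668-105025687, minus strand: TTCAagACCatGGACAGCtC
STMN3 intron 1, chr20:62276777-62276796, plus strand: TTCAGCACCacaGcCAGCcC
TUBB3 upstream, chr16:89987666-89987685, minus strand: TTCtGCAgCtaGGACAGCGt
TUBB3 intron 1, chr16:89992912-89992931, plus strand: gTCAGCACCaaGGACAGCGC
The matches of NEFH, INA intron 1 and TUBB3 intron 1 were equal to the arms at 17 positions, and the others shown at 15. The matches of NEFM and STMN2, which also had no peak and are not printed, were equal at 16.

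The EHMT1 peaks at INA are shown whole because they are the only peaks at these genes that carried an RE1-type match, which is in capitals. Both are read on the minus strand of hg19. The first lay inside the gene, and the second lay just beyond the 10 kb limit.
INA intron 1 EHMT1 peak, chr10:105038690-105038853: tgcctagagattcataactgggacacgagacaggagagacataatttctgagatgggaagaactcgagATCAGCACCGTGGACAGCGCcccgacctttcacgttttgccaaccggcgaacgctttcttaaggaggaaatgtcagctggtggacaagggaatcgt
INA upstream EHMT1 peak, chr10:105025571-105025724: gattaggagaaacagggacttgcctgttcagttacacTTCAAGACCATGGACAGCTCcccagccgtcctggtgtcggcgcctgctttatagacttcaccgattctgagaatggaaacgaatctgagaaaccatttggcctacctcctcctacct

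INA was the only gene of the 7 with an EHMT1 peak. The gene spans chr10:105036895-105050103 on the plus strand, and the peak of 164 bp lay in its intron 1 with the summit 1.87 kb downstream of the start. It had a fold enrichment of 6.44, which is the ratio of the reads piled up at the summit to the local background after 1 is added to each, and a −log10 q of 6.51, where q is the peak caller's adjusted p-value. These values correspond to 14 reads over a background of 1.33, with an exact Poisson 95% interval of 7.65 to 23.5 reads that covers counting error only. The summit was 8 bp from the centre of the RE1-type match. Of the 1748 EHMT1 peaks, 58.2% had a fold at or above that of INA, so it was a peak of middling height by fold. By −log10 q it stood lower, at rank 1473 of the 1748. Among all protein-coding genes, 2.67% had an EHMT1 peak by the same rule and 0.615% had an EHMT1 summit within 1 kb of an annotated start, which INA did not.

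A second EHMT1 peak stood 11.2 kb upstream of INA, just outside the window, and overlapped the annotated span of NT5C2, which encodes a cytosolic nucleotidase. It was the higher of the pair, with a fold of 8.48 and a −log10 q of 11.3 from 18 reads over a background of 1.24, and 31.2% of the list reached its fold. Its summit lay 34 bp from the centre of an RE1-type match of 15 positions. Neither EHMT1 peak overlapped a peak of any V5 or H3K9me2 list. Both peaks inside the 10 kb limit overlapped their gene, and this one was the nearest outside it for any of the 7 genes, followed by peaks 26.1 kb from INA.

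NEFL was the only gene of the 7 with a K450RK451R V5 peak. It lies on chromosome 8 from 24808468 to 24814235 on the minus strand, and the peak of 100 bp ran from 24813853 to 24813952 in the coding part of exon 1, with its summit 0.258 kb downstream of the start. The fold enrichment was 4.93 and the −log10 q 3.25, which correspond to 10 reads over a background of 1.23, with an exact Poisson 95% interval of 4.80 to 18.4 reads. This was close to the middle of its list, in which 46.3% of the 14799 peaks had a fold at or above it. A peak of this kind was common, since 27.7% of all protein-coding genes had a K450RK451R V5 peak in the window and 6.27% had a summit within 1 kb of an annotated start. No EHMT1 peak, no H3K9me2 peak and no other V5 peak overlapped it.

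The sequences under the INA and NEFL peaks differed. Within 100 bp on either side of the summit, NEFL had a GC content of 64.7% and 19 CpG dinucleotides, and the best alignment to the RE1 arms had 7 mismatches. The same window at INA had a GC content of 49.8%, 10 CpG dinucleotides and 1 mismatch. In the K450RK451R V5 list the median GC content of summit windows was 56.7% (quartiles 52.7% to 60.2%), so NEFL lay above the upper quartile. In the EHMT1 list it was 43.8% (quartiles 38.3% to 53.2%), which held INA within its quartiles. Both windows were made of rarely repeated sequence, since the words of 14 bases in them occurred a median of 6 times in the genome at NEFL and 18 times at INA, compared with medians of 2996 over the K450RK451R V5 list and 58 over the EHMT1 list.

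NEFM, NEFH, STMN2, STMN3 and TUBB3 had no peak of any list in their windows, as was the case for 71.1% of all protein-coding genes. NEFM neighbours NEFL on chromosome 8 at 24771271 to 24776611, and its nearest K450RK451R V5 peak was the NEFL peak, 37.2 kb away. NEFH, at chr22:29876207-29887379, lay 74.1 kb from a K450RK451R V5 peak and 225 kb from an EHMT1 peak. STMN2, the longest of the genes at 55.0 kb, lies on chromosome 8 at 80523352 to 80578393, 282 kb from a K450RK451R V5 peak and 2176 kb from an EHMT1 peak. STMN3 lies at chr20:62271058-62289035 and TUBB3 at chr16:89987800-90005169, where the nearest K450RK451R V5 peaks were 35.8 and 178 kb away. Across all genes the median distance to the nearest K450RK451R V5 peak was 55.4 kb (quartiles 5.50 to 149 kb), which places STMN2 and TUBB3 beyond the upper quartile.

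**Figure D1:**
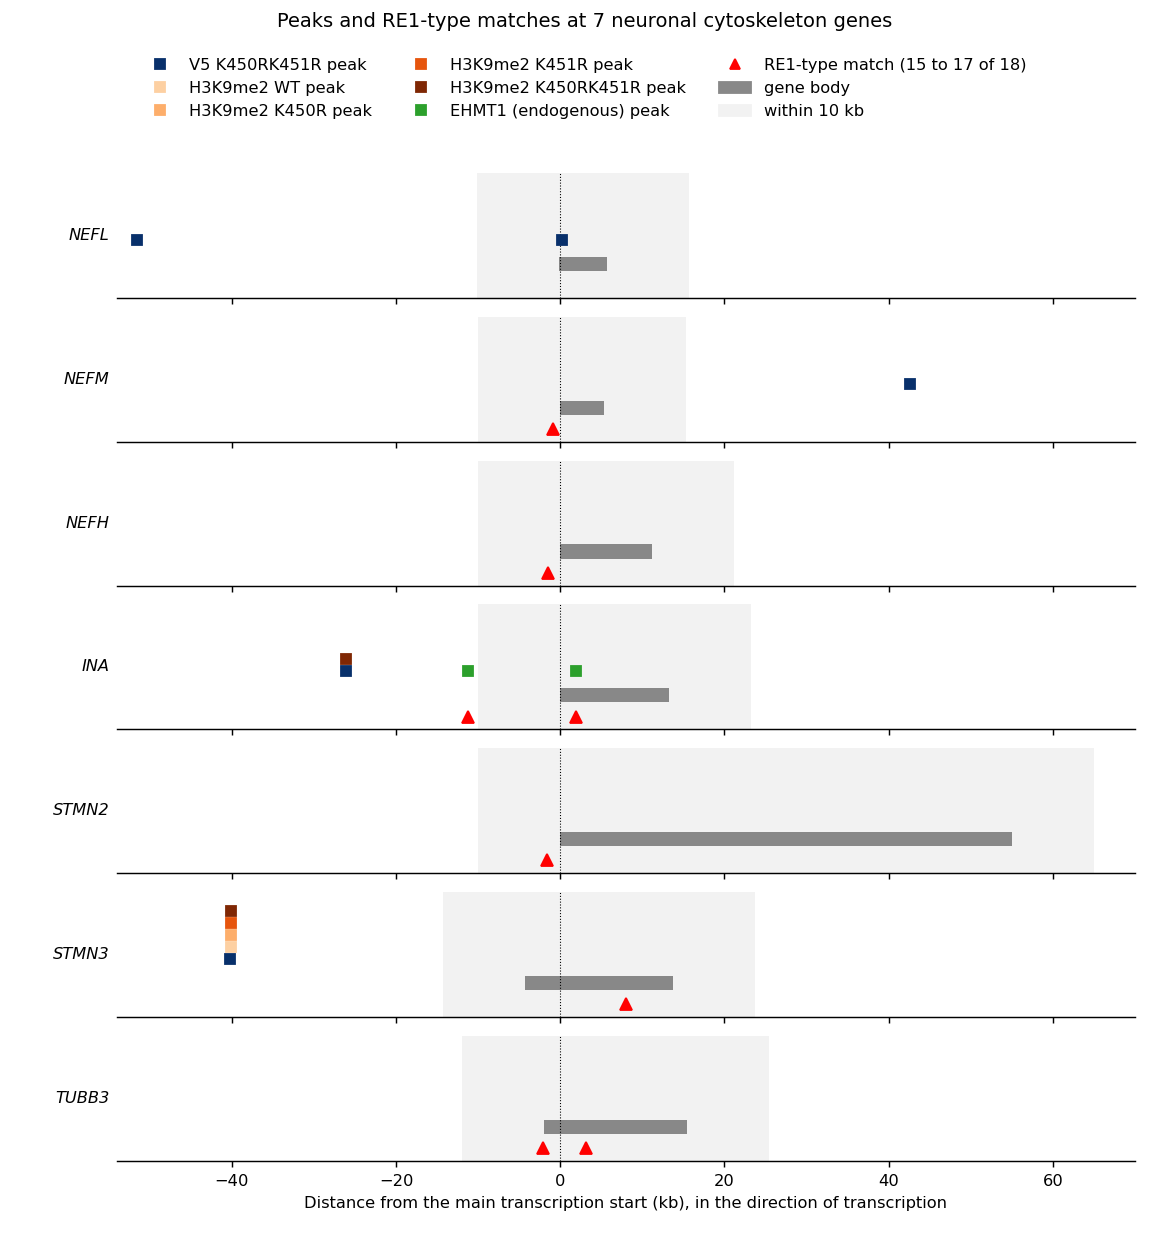
Positions of peaks (squares, coloured by list) and RE1-type matches (red triangles, 15 to 17 of 18 positions) against distance in kb from the main transcription start of each gene, in the direction of transcription, with the gene body in dark grey and the 10 kb window in light grey. Triangles lie in 6 of the 7 windows, and of these only the INA triangle in intron 1 has a peak above it.

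None of the 7 genes had a peak in the WT, K450R or K451R V5 lists, where the share of all protein-coding genes was 0.362%, 0.382% and 0.575%. None had an H3K9me2 peak in the WT, K450R, K451R or K450RK451R line either, against 0.536%, 0.59%, 0.922% and 0.803% of all genes. A count of 0 of 7 allows a share of up to 42.9% when 3 counts are taken as the limit of a count of 0, and up to 35.4% by the 95% Wilson interval, so no difference from these backgrounds can be read from it. Counted over all lists, 2 of the 7 genes (28.6%) had a peak, and 28.9% of all protein-coding genes did. The share with a K450RK451R V5 peak was 1 of 7 (14.3%, 95% Wilson interval 2.57% to 51.3%), and the share with an EHMT1 peak was the same. The patterns of NEFL and INA differed in how common they were, since 5103 protein-coding genes (25.3%) had peaks in the K450RK451R V5 list alone and 184 (0.913%) in the EHMT1 list alone.

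**Figure D2:**
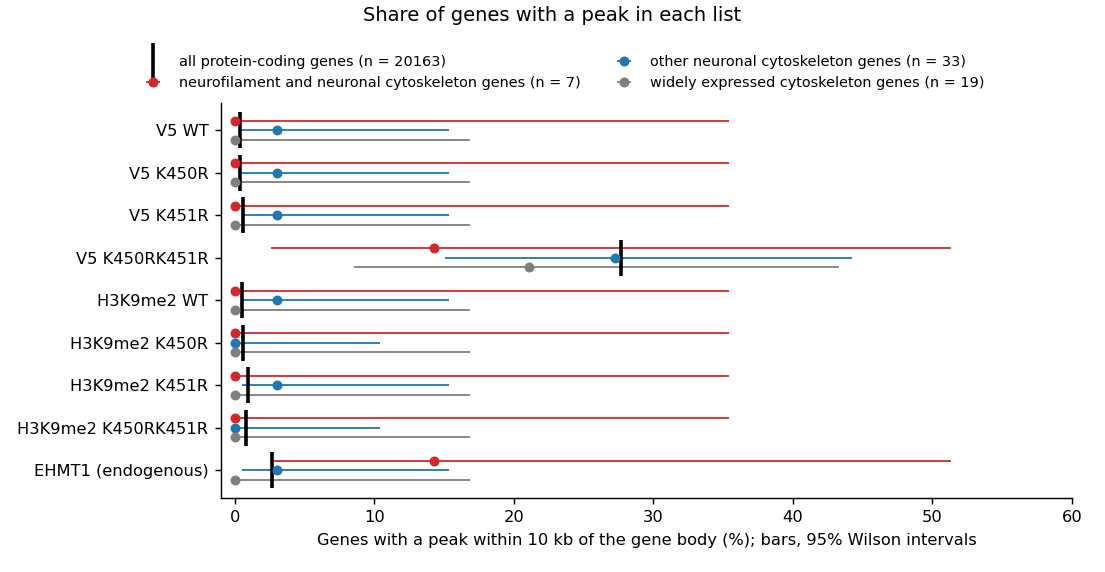
Percentage of genes with a peak within 10 kb of the gene body for each list, with 95% Wilson intervals, for the 7 genes (red), 33 other neuronal cytoskeleton genes (blue) and 19 widely expressed cytoskeleton genes (grey), and for all 20163 protein-coding genes (black bars). In the K450RK451R V5 list the 7 genes stand at 14.3% and all genes at 27.7%, within the interval of the 7.

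Several of the peaks further out were shared between antibodies. The nearest peaks to STMN3 lay 35.8 kb away in RTEL1, a helicase gene, where all 4 H3K9me2 lists and the K450RK451R V5 list had a peak at the same place. Their folds were 8.78 for H3K9me2 in the WT line, 9.44 in K450R, 10.3 in K451R and 11.6 in K450RK451R, and 7.89 for K450RK451R V5. At 26.1 kb from INA, the K450RK451R line had overlapping V5 and H3K9me2 peaks with folds of 7.73 and 9.09. The words of 14 bases under them occurred a median of 2172 times in the genome, and those under the RTEL1 peaks 629 to 680 times, so that both places were more repetitive than the NEFL and INA peaks. TUBB3 had K450RK451R V5, EHMT1 and 3 H3K9me2 peaks 178 kb away. For NEFH the nearest K451R V5 peak and the nearest peaks of 3 H3K9me2 lists lay 360 kb away. Whether the K450RK451R V5 and EHMT1 lists, which had nearer peaks, also had one there was not examined. Of the 3 H3K9me2 peaks near TUBB3, that of K450R overlapped the V5 and EHMT1 peaks. Those of K451R and K450RK451R lay beside them without overlap.

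**Figure D3:**
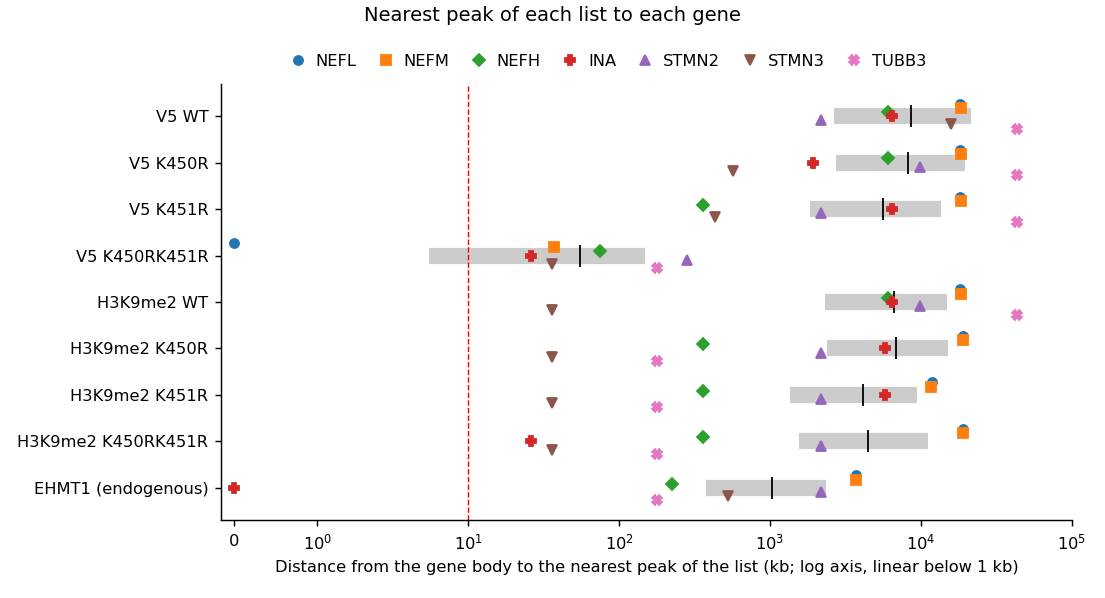
Distance in kb (log axis, linear below 1 kb) from each of the 7 gene bodies to the nearest peak of each list, with the quartiles (grey bar) and median (black tick) over all protein-coding genes and the 10 kb limit as a red dashed line. Only NEFL in the K450RK451R V5 list and INA in the EHMT1 list lie left of the line, both at 0.

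The RE1-type matches lay near the starts of the genes. Of the 7 genes, 6 (85.7%) had a match within 10 kb of a start, as did 3.97% of all protein-coding genes (800 of 20163). Counted only over genes with a match in the window, these were all 6 of the 6 and 800 of 2117. The 7 genes were shorter, with a median of 13.2 kb against 27.2 kb, and the part of length in this was not tested. NEFH, INA and TUBB3 had a match of at least 17 positions in the window, as did 1.01% of all genes (204 of 20163). The NEFM match of 16 positions lay 0.924 kb upstream of the start, and the STMN2 match of 16 positions 1.56 kb upstream. The NEFH match was 1.53 kb upstream, those of TUBB3 were 2.08 kb upstream and 3.17 kb downstream, and the STMN3 match was 7.99 kb downstream in intron 1. Both TUBB3 matches also lay in an overlapping protein-coding gene that the annotation lists as ENSG00000198211. For NEFL the nearest alignment equal at 14 or more positions was 10.2 kb beyond the gene and equal at 14.

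Over all RE1-type matches of the genome, the share with an EHMT1 peak was higher the more positions were equal. An EHMT1 peak covered 6.50% of the 2369 matches of 15 positions, 24.9% of the 570 matches of 16, 50.3% of the 187 matches of 17 and 62.5% of the 24 full matches. The INA intron 1 match, with a peak, and the NEFH and TUBB3 intron 1 matches, without one, thus belong to a class in which about as many sites had an EHMT1 peak as lacked one. The NEFM and STMN2 matches, without a peak, belong to a class in which most had none. The K450RK451R V5 list covered 12.3% of the matches of 17 positions and 1.27% of those of 15, and it covered none at the 7 genes. Across all 3150 matches 405 (12.9%) had an EHMT1 peak, 93 (2.95%) a K450RK451R V5 peak and 19 a WT V5 peak, while the H3K9me2 lists had a peak at 1 match in the K451R line and at 0 in the other lines.

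**Figure D4:**
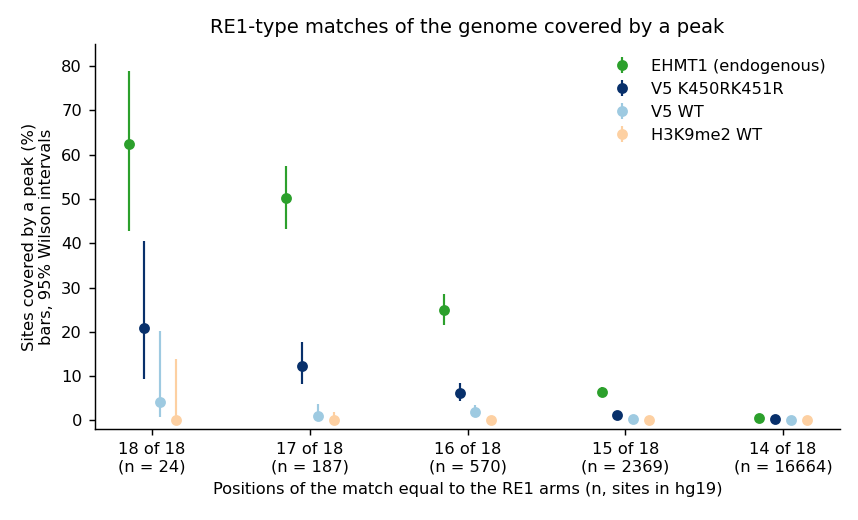
Percentage of RE1-type matches in hg19, and of sites equal at 14 positions, covered by a peak against the number of arm positions equal to RE1. Shown are 4 of the 9 lists, with 95% Wilson intervals and the number of sites under each class. The EHMT1 share (green) is 62.5% at full matches and 6.50% at 15 of 18, and the K450RK451R V5 share (dark blue) is lower in every class.

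Counted by gene, an EHMT1 peak lay on an RE1-type match in 1 of the 6 genes with a match (16.7%), and in 283 of 2117 (13.4%) of all protein-coding genes with one. For the K450RK451R V5 list these counts were 0 of 6 and 71 of 2117 (3.35%). Within the lists, 21.3% of EHMT1 summit windows held an RE1-type match, as at INA, compared with 0.453% of K450RK451R V5 windows. In windows 1 kb away the shares were 0% for EHMT1 and 0.00676% for K450RK451R V5, so both lists held more matches at their summits than beside them. NEFL, whose window held none, was in this respect like nearly all of its list.

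The depth of the lists differed, and the reads at NEFL and INA were set beside the number each list needed for a call. The reads behind each list, estimated from its genome-wide background, came to 8.84 M (mega) for WT V5, 11.1 M for K450R, 14.1 M for K451R, 22.7 M for K450RK451R and 26.8 M for EHMT1, and the H3K9me2 lists had 8.79 to 27.6 M. In some lists few peaks stood at that background, at 1.38% of WT V5, 0.471% of K450R and 2.33% of K451R peaks. The share was 39.1% for K450RK451R V5 and 6.30% for EHMT1. Error in the estimated depths is not part of the intervals given here. Scaled to these depths, the 10 reads at NEFL would be 3.90 in WT, 4.89 in K450R and 6.23 in K451R. Each of these lists needed 7 for a call over the NEFL background scaled in the same way. The intervals of these values, 1.87 to 7.17 in WT, 2.35 to 8.997 in K450R and 2.99 to 11.5 in K451R, all reach 7. The absence of the NEFL peak from these 3 lists therefore cannot be read as a difference between the lines. In the EHMT1 list the scaled value was 11.8 reads and 10 were needed, although the interval of 5.67 to 21.8 spans that number. The 14 reads at INA would be 11.8 in the K450RK451R V5 list, where 7 were needed, with an interval of 6.47 to 19.9. For WT V5 they would be 4.61 and for K450R 5.79, both under the 7 needed, and for K451R 7.37. These figures take the enrichment to be equal between antibodies and lines, which was not tested.

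**Figure D5:**
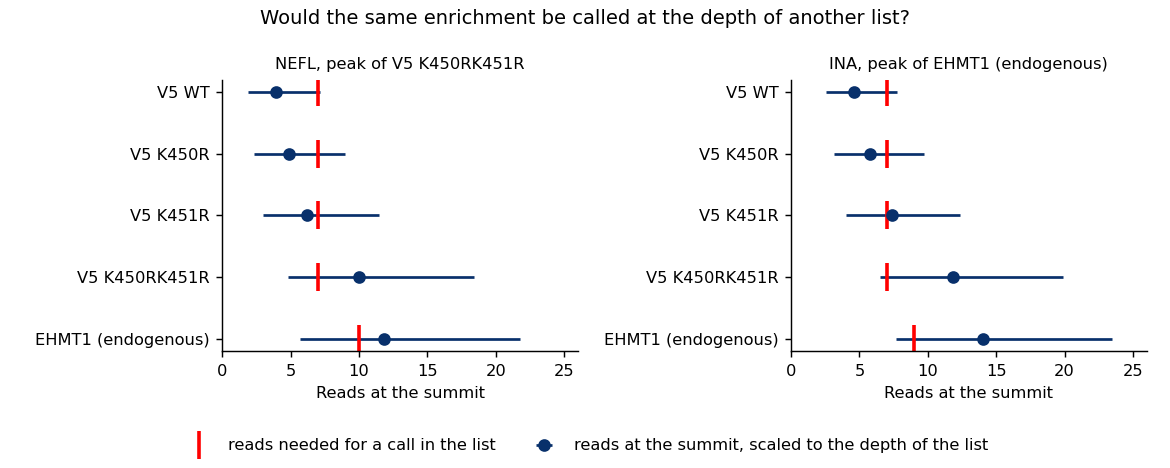
Reads at the NEFL (left) and INA (right) summits scaled to the depth of each V5 list and the EHMT1 list (points, with exact Poisson 95% intervals), with the reads needed for a call there (red ticks). At NEFL the points for WT, K450R and K451R lie at 3.90, 4.89 and 6.23 reads, under the 7 needed.

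The starts of the 7 genes were mostly rich in GC, at 61.5% for NEFL, 64.3% for NEFM, 69.0% for NEFH, 67.8% for INA, 45.9% for STMN2 and 73.3% for both STMN3 and TUBB3 over 1 kb. The median over all protein-coding genes was 61.2% (quartiles 53.9% to 67.6%). NEFH, STMN3 and TUBB3 lay above the upper quartile and INA just above it. NEFM lay between the median and the upper quartile, NEFL near the median, and STMN2 below the lower quartile. The part of GC content in the peak calls was not tested.

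Of 33 other neuronal cytoskeleton genes, 9 (27.3%) had a K450RK451R V5 peak and 1 (3.03%) an EHMT1 peak. Of 19 widely expressed cytoskeleton genes, 4 (21.1%) had a K450RK451R V5 peak and 0 an EHMT1 peak. Among all protein-coding genes these shares were 27.7% and 2.67%. The list names are loose, and expression was not measured here. The widely expressed list held keratins and desmin, which are confined to some tissues. The other neuronal list held vimentin and an alpha-spectrin that many cell types express. The other neuronal genes were longer, with a median of 82.1 kb against 13.2 kb for the 7 genes and 27.2 kb for all protein-coding genes, and the part of length in these shares was not tested. KIF5C, a kinesin motor of axonal transport, had the EHMT1 peak, at chr2:149639294-149639458 and 6.56 kb downstream of its start, with a fold of 22.5. All 4 V5 lists had a peak at that place, with folds of 11.5 in WT, 18.02 in K450R, 20.8 in K451R and 10.2 in K450RK451R, and so did H3K9me2 in the WT line at 10.8 and in K451R at 7.94. This place differed from the INA peak in being held by 7 of the 9 lists and in having no RE1-type match.

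The genes of the other lists with K450RK451R V5 peaks alone had highest folds from 4.08 (KIF5B) to 7.53 (ANK2), on both sides of the 4.93 at NEFL, with DPYSL2, MAP4, DPYSL5 and TUBA1C also below it. The 6 with the highest fold were ANK2 (7.53) and ANK3 (5.29), ankyrins that tether membrane proteins to the cytoskeleton, DCLK1 (7.04), a microtubule-binding kinase, DPYSL3 (6.52), a collapsin response mediator, KIF1A (5.98), a kinesin of synaptic vesicle precursors, and SPTAN1 (5.22), an alpha-spectrin. Of these 6 peaks, only that of SPTAN1 stood as near to a start as that of NEFL, at 0.163 kb downstream. Outside the 6, the peak of KIF5B, from the widely expressed list, stood 0.048 kb upstream of its start. RE1-type matches lay in the windows of 9 of the 33 other neuronal genes (27.3%), 0 of the 19 widely expressed ones and 10.5% of all protein-coding genes. The part of gene length in these shares was not tested. None of the matches at the 9 genes had a peak of any list. Of all protein-coding genes with a match, 13.4% had an EHMT1 peak on it and 3.35% a K450RK451R V5 peak, so 0 of 9 cannot be read as a difference. The genes most like NEFL over the 9 lists, by the Euclidean distance between their highest log2 folds, were KLHDC1, SIK2, TBRG4 and TUBGCP3 at a distance of 0, followed by LRRC37A3. All 5 had K450RK451R V5 peaks alone, with a log2 fold of 2.30 as at NEFL. This follows from the measure, since NEFL had a peak in that list alone, so no likeness beyond the fold can be read from it.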

How the data were processed

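ChIP-seq peak lists for V5, H3K9me2 and EHMT1 in LNCaP cells were analysed, 1 list for each of 9 groups of 2 replicates. The authors mapped single-end reads to hg19 and called narrow peaks, and the submitters' notes name BWA 0.7.9a, SAMtools 1.2, MACS2 2.1.0 and FastQC 0.11.9. For each peak the authors deposited its position, fold enrichment (a ratio), −log10 p-value, −log10 q-value, and the summit offset. The narrow calling may miss a broad mark such as H3K9me2.

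Pileup and background were solved from −log10 p and fold, which adds 1 to both pileup and background, assuming 100-bp extended reads, and the lowest recurring background times 2.7 Gb over 100 bp gave the reads per list (8.79 to 27.6 M, mega). The extension and the use of no control were inferred from the values. A solution was found for at least 99.9% of peaks in each list, and the steps were tested on simulated data. Intervals cover counting error only.

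Genes were taken from GENCODE mapped to hg19. Windows reached 10 kb from the gene body, motif and composition windows reached 100 bp on either side of the summit, and peaks sharing at least 1 bp overlapped. The 7 genes and both other gene lists were chosen with earlier results of these data known. Named are the 7 genes, genes of the other lists with an EHMT1 peak, the 6 with the highest fold among those with K450RK451R V5 peaks alone, and the 5 genes nearest in Euclidean distance to the members with a K450RK451R V5 peak. No test was made, because each group had 1 list. Alternatives were other distances, cutoffs, equal numbers of peaks, overlap rules and mismatch limits. Python 3.11.15, numpy 2.4.6, pandas 2.3.3, scipy 1.17.1 and numba 0.67.0 were used.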

Additional observations from a re-analysis of the deposited data

How the results depend on the processing

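Of 59 alternative values, 54 stayed as reported and 5 moved. Most of those that stayed were alternatives to counts of 0, in the WT, K450R and K451R V5 lists and the H3K9me2 lists. A narrower window or a stricter cutoff could not raise a count of 0, so the tally says little about stability. The count of genes with a K450RK451R V5 peak went from 1 (NEFL) to 0 at a −log10 q of at least 5, at a fold of at least 5 and with the 637 highest peaks taken from each list. The count with an EHMT1 peak went from 1 (INA) to 0 when the summit had to lie within 1 kb of a start and with the 637 highest peaks of each list. Windows of 5 or 25 kb, a common −log10 p cutoff of 6.57, protein-coding transcripts only and stricter overlap rules moved no count. Neither did a window of 10 kb around the main start, which was chosen after seeing the data. Limits of 2 or 4 mismatches were applied only to the count of peaks with an RE1-type match in the summit window, which stayed at 1. The count of genes with a match was not varied, and STMN3 would have none at a limit of 2 mismatches. No paired analysis was possible because only 1 list stood for each group, and for the same reason no replicate could be left out. At 10 and 14 reads, neither peak is far above the number needed for a call.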
